A study of Mus musculus with 9 samples.

Results

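The genes described here encode molecules with which leukocytes hold on to other cells and to matrix, and by which they find their way to and from the marrow. They were taken as a list of 36 genes, comprising integrin subunits, P-selectin and its ligand, other adhesion glycoproteins, adhesion molecules of the immunoglobulin superfamily, and chemokine receptors. All probe sets of the array annotated to 1 of these genes alone were taken. This gave 66 probe sets of 35 genes, among 22690 probe sets and 12394 named genes on the array, and Itga1 was not analysed here. After a filter on dim signals, 43 probe sets of 28 genes were tested, among 8965 tested genes.

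RNA was measured on 9 mouse Affymetrix arrays, with 3 arrays for each of 3 kinds of hematopoietic cell. Granulocyte-macrophage progenitors (GMP) from bone marrow are the normal precursors of granulocytes and macrophages. L-GMP resemble them and came from leukemic marrow, in a study of MLL-AF9, a protein made by joining parts of Kmt2a and Mllt3 that drives acute leukemia. The last 3 arrays, here L-GMP-derived, give only L-GMP as their source, under a coded title. They were taken for L-GMP grown in vitro by elimination, since the design text lists cells of that kind and the other arrays are accounted for, and every statement about them is limited by this. Mouse strain, age, sorting antigens, the vector that carries the fusion and the culture conditions were not stated in the sources used here. The labels do not state that arrays of 1 group are from different animals or cultures, so the p-values reflect only the variation among these arrays, and that may be technical.

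Integrins are pairs of an alpha and a beta subunit that bind matrix proteins or counter-receptors on other cells, and they need linker proteins such as talin and kindlin inside the cell to take the binding shape. Selectins catch flowing leukocytes by their sugar-bearing ligands, chemokine receptors then switch integrins on, and members of the immunoglobulin superfamily serve as integrin ligands on the surface opposite. In marrow, retention of blood progenitors is known to rest on the receptor Cxcr4 and its ligand Cxcl12, and on alpha 4 integrins and their ligand Vcam1.

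Correlations between arrays were 0.958 to 0.991 within groups and 0.898 to 0.928 between them. Replicate 1 of the L-GMP-derived cells was the least like its group, correlating at 0.958 and 0.964 with the other arrays of its group, which correlated at 0.989. The 3'/5' signal ratio of beta-actin, which reflects RNA integrity, ran from 4.87 to 5.56 in L-GMP, 6.99 to 8.12 in GMP and 6.93 to 7.18 in L-GMP-derived cells, while that of Gapdh overlapped between all groups. The ratio of the 3' to the middle probe set of beta-actin did not overlap between any of the groups, at 2.26 ± 0.291 in L-GMP, 4.23 ± 0.537 in GMP and 3.01 ± 0.170 in L-GMP-derived cells. The part of RNA quality in the results below was not tested. All 10 GMP marker genes listed (among them Mpo, Elane, Prtn3 and Ctsg, genes of primary granules) lay above the filter on every GMP and every L-GMP array, and 8 of 10 did so on all L-GMP-derived arrays. There, the stem cell factor receptor gene Kit read 93.9 ± 23.5 (SD, n = 3) against 816 ± 41.7 in GMP. In L-GMP, 4 of the 10 (Ctsg, Cd34, Ms4a3 and Cebpa) were lower than in GMP and 1 (Fcgr3) was higher (limma, adjusted p under 0.05). Of all tested genes 12.8% were lower and 13.1% higher. Cebpa was 3.47-fold lower (adjusted p = 1.60e-04) and Ctsg 1.36-fold lower (adjusted p = 0.00207). As these are bulk samples, fewer cells expressing a gene and less RNA per cell cannot be told apart.

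In L-GMP, 10 of the 28 tested genes were higher than in GMP and 1 was lower (limma, adjusted p under 0.05). Over all tested genes 13.1% were higher and 12.8% lower. Relative to GMP the L-GMP-derived cells had 7 higher and 7 lower, against 13.4% and 10.7% of all tested genes. Against L-GMP they had 2 higher and 11 lower, against 16.6% and 14.1% of all. Of the tested genes, Itgb7, Selp and Ccr1 passed the filter through the arrays of 1 group alone and so had to differ. Without these 3 the counts were 8 higher and 0 lower of 25, 7 and 6, and 2 and 9. The median log2 difference over the tested members was 0.30 for L-GMP against GMP, 0.00 for L-GMP-derived cells against GMP and -0.36 for L-GMP-derived cells against L-GMP, and over all tested genes it was -0.01, 0.00 and 0.00. The comparisons share arrays, so these counts are not independent of one another. L-GMP had the highest mean of the 3 groups for 17 of the 28 genes, L-GMP-derived cells for 7 and GMP for 4.

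**Figure D1:**
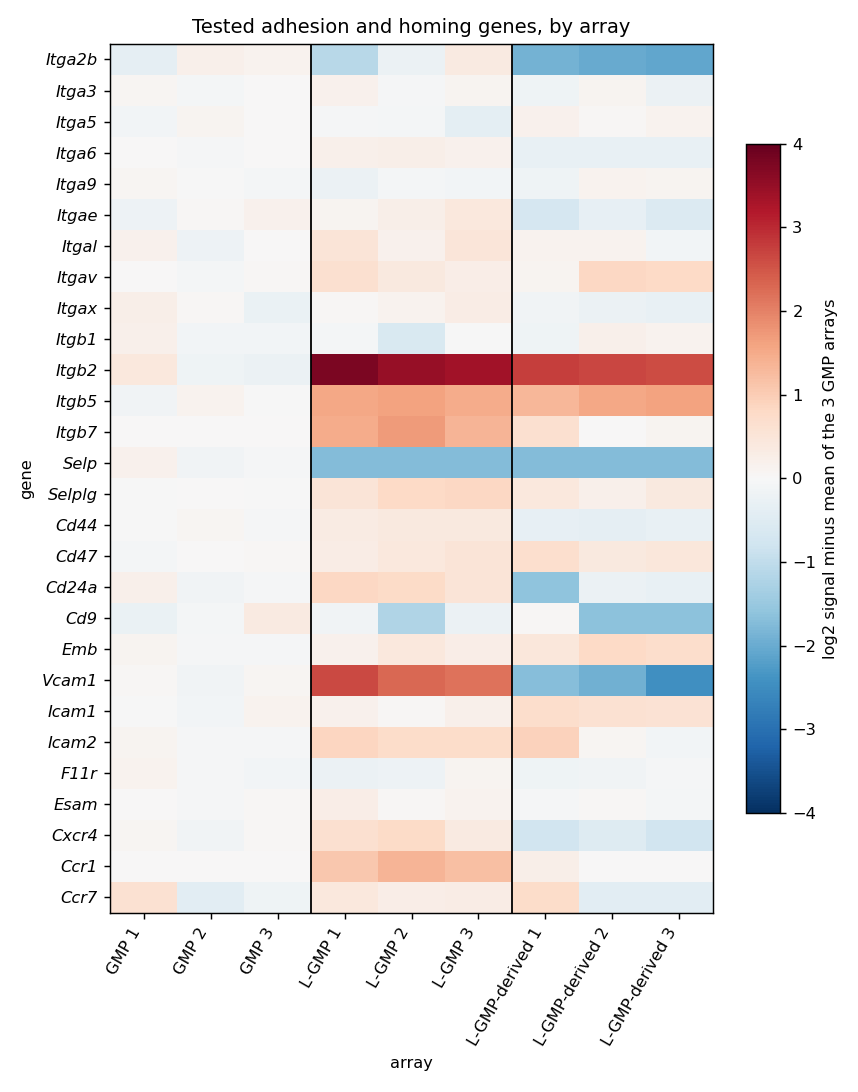
Log2 signal of each tested adhesion and homing gene (rows) on each of the 9 arrays (columns), as the difference from the mean of the 3 GMP arrays; signals under 62.4 were set to that floor, and the colour scale ends at 4 in either direction. Itgb2 and Itgb5 are red on all 6 leukemic arrays, Vcam1 is red on the L-GMP arrays and blue on the L-GMP-derived ones, and Selp is blue on both.

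At least 2-fold differences at an adjusted p under 0.05 were found for 6 of the 28 genes in L-GMP against GMP (Itgb2, Itgb5, Itgb7, Vcam1 and Ccr1 higher, Selp lower), where 6.32% of all tested genes differed so. Calls in either direction made up 25.9%, 24.1% and 30.7% of all tested genes in the 3 comparisons. L-GMP-derived cells differed from GMP so at 5 of 28 (6.32% of all genes) and from L-GMP at 6 of 28 (7.67% of all), the latter all lower. Without Itgb7, Selp and Ccr1 these counts were 3, 4 and 4 of 25. The groups did not overlap for 17, 15 and 17 of the 28 genes in the 3 comparisons, and for 14, 14 and 15 of the 25, against 46.8%, 40.9% and 41.1% of all tested genes. Of the 28 genes, 10 were called in no comparison and 5 in all of them. Folds are ratios of geometric group means, and "at least" marks those with 1 or more arrays of the lower group at the floor.

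Of 4 tested integrin beta subunits 3 rose in L-GMP, or 2 of 3 without Itgb7, and of 9 alpha subunits none was called there (13.1% of all tested genes rose). The largest rise of any member was that of Itgb2. This gene encodes the beta 2 subunit (CD18), the partner of all leukocyte integrins of the CD11 type. Its signal was 145, 96.5 and 92.3 on the GMP arrays, 1495, 1221 and 1127 on the L-GMP arrays, and 743, 689 and 661 on the L-GMP-derived arrays. The 3 groups did not overlap, with L-GMP highest and GMP close to the dim end of the array. In L-GMP it was 11.7-fold higher than in GMP (log2 fold change 3.54 ± 0.18 SE, adjusted p = 5.05e-07). L-GMP-derived cells stood 6.40-fold above GMP (adjusted p = 3.85e-06) and 1.82-fold below L-GMP (adjusted p = 0.00469).

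No alpha partner of Itgb2 was called. Itgal (CD11a) read 166, 128 and 147 in GMP, 211, 166 and 204 in L-GMP and 162, 161 and 137 in L-GMP-derived cells. These values overlapped between groups apart from those of the L-GMP-derived and L-GMP arrays, and none of the 3 comparisons passed the test (adjusted p = 0.0750, 0.789 and 0.122). Itgax (CD11c) lay between 95.1 and 144 on all arrays (adjusted p = 0.499, 0.340 and 0.0926). Itgam (CD11b), a partner found on monocytes and granulocytes, was too dim to be tested, at 25.4, 15.3 and 9.55 in GMP, 112, 77.4 and 39.6 in L-GMP and 27.7, 22.5 and 33.9 in L-GMP-derived cells. All 3 of its L-GMP values lay above those of the other groups, but only 1 array exceeded the filter of 111, and its difference without the filter did not pass the test (adjusted p = 0.264 against GMP).

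Itgb5 encodes the beta 5 subunit, which pairs with alpha v and binds vitronectin. Its brightest probe set read 353, 427 and 386 in GMP, 1131, 1181 and 1078 in L-GMP, and 975, 1137 and 1173 in L-GMP-derived cells. The leukemic groups overlapped with each other and lay above every GMP array. Itgb5 was 2.91-fold higher in L-GMP (log2 fold change 1.54 ± 0.12 SE, adjusted p = 1.06e-05) and 2.82-fold higher in L-GMP-derived cells (1.49 ± 0.12 SE, adjusted p = 1.29e-05), and the latter did not differ from L-GMP beyond the spread (-0.05 ± 0.12 SE, adjusted p = 0.801). Its 3 other probe sets gave log2 differences of 1.55 to 2.88 for L-GMP and 1.20 to 2.86 for L-GMP-derived cells, all past the threshold. The brightest one is of a kind that may bind related transcripts, and with such probe sets left out the folds were 5.52 and 4.86.

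Itgav, the alpha v partner of Itgb5, read 1148, 1061 and 1171 in GMP, 1748, 1488 and 1359.9 in L-GMP, and 1218, 2001 and 1941 in L-GMP-derived cells. Every leukemic array lay above every GMP array. The 1.35-fold difference in L-GMP did not pass the test (adjusted p = 0.100), while that in L-GMP-derived cells did (1.49-fold, adjusted p = 0.0386). The latter call ended in 11 of 19 alternatives (adjusted p 5.58e-05 to 0.259), among them the omission of L-GMP replicate 2, of L-GMP-derived replicate 2 or 3, and of any GMP array. The difference in L-GMP passed the test in 4 of the 19 (adjusted p 0.00712 to 0.287). L-GMP-derived cells were not called against L-GMP (log2 difference 0.14, adjusted p = 0.605). A second, dimmer probe set of Itgav showed log2 differences of 0.05 and -0.06 (adjusted p = 0.884 and 0.874).

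Itgb7 encodes the beta 7 subunit, whose pairs with alpha 4 and alpha E act in homing to the gut and in binding E-cadherin. It lay under the floor on all GMP arrays, at 54.4, 55.3 and 40.5, and rose to 176, 205 and 161 in L-GMP, with 97.3, 59.5 and 67.1 in L-GMP-derived cells. L-GMP stood apart from both other groups, which overlapped on the floored scale. Itgb7 passed the filter through the L-GMP arrays alone, so it had to be highest there. The difference from GMP was at least 2.88-fold (log2 fold change 1.52 ± 0.19 SE, adjusted p = 2.08e-04), and L-GMP-derived cells were at least 2.42-fold below L-GMP (adjusted p = 5.97e-04). With the floor at the 40th percentile of all values, both folds became 1.61. Itgae, which encodes alpha E, read 434, 516 and 567 in GMP, 544, 594 and 676 in L-GMP, and 314, 401 and 345 in L-GMP-derived cells. It did not pass the test in L-GMP (adjusted p = 0.228). It was lower in L-GMP-derived cells than in L-GMP (1.71-fold, adjusted p = 0.00272) and than in GMP (1.43-fold, adjusted p = 0.0275). The last call ended without L-GMP-derived replicate 1 or 3 and without GMP replicate 2 or 3. It also ended without the filter and with a term for the replicate number in the fit (adjusted p up to 0.118).

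The promoter of Itgb7 is shown because this gene rose in L-GMP and its window holds a purine-rich motif known as the core of sites for PU.1, a transcription factor of myeloid cells. The sequence is that of RefSeq on GRCm38.p6 (chr15:102231886-102232185, minus strand), 5' to 3', from 250 bases before to 50 after the annotated start, with the motif GAGGAA or its complement TTCCTC in capitals.
Itgb7: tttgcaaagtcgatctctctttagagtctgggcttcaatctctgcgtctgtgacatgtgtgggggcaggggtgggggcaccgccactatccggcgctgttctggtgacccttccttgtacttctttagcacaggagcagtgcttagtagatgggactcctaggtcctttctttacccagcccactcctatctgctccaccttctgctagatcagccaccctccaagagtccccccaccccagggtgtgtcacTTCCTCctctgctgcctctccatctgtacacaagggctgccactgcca
The motif lay on the complementary strand, from position 3 after the start. This window lies within the gene, whose annotated span is 102215994 to 102233405. The motif is therefore not at the 5' end of that span.

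Itga6, the alpha 6 subunit of laminin receptors, differed little in size but with a small spread. It read 1630.1, 1577 and 1633 in GMP, 1852, 1901 and 1814 in L-GMP, and 1305, 1308 and 1309 in L-GMP-derived cells. The 3 groups did not overlap. L-GMP-derived cells were 1.42-fold below L-GMP (adjusted p = 7.02e-04) and 1.23-fold below GMP (adjusted p = 0.0147). The latter call ended without GMP replicate 3 and with a term for the replicate number in the fit (adjusted p up to 0.160 over the alternatives). L-GMP was 1.15-fold above GMP without passing the test (adjusted p = 0.0766). The second probe set of Itga6 was also lower in L-GMP-derived cells in both comparisons (adjusted p = 0.0404 and 0.0282).

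Itga2b, the alpha IIb subunit of the fibrinogen receptor of megakaryocytes and platelets, read 263, 387 and 372 in GMP and 156, 288 and 432 in L-GMP, which overlapped (adjusted p = 0.488). On the L-GMP-derived arrays it was 90.5, 83.4 and 79.9, under every other array. It was 3.98-fold lower there than in GMP (log2 fold change -1.99 ± 0.31 SE, adjusted p = 0.00103) and 3.18-fold lower than in L-GMP (adjusted p = 0.00223). Of 8 other megakaryocyte and platelet genes with a probe set, Ppbp, Gp9 and Vwf lay below the filter on all 9 arrays. Gp1bb, a subunit of the platelet receptor for von Willebrand factor, was at least 3.26-fold higher in L-GMP than in GMP (adjusted p = 0.00458) and 2.11-fold lower in L-GMP-derived cells than in L-GMP (adjusted p = 0.0377). Of the 4 tested, it alone was called in L-GMP against GMP (13.1% of all tested genes were higher), and the median log2 difference was -0.0004. Pf4, Treml1 and Clec1b gave -0.15, 0.15 and -0.30 there (adjusted p = 0.518, 0.530 and 0.104). The summed signal of the 8 was 831 to 934 in GMP, 977 to 1058 in L-GMP and 768 to 921 in L-GMP-derived cells, and its part in the result was not tested.

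The other integrin subunits showed no call. Itga9, Itga3, Itga5 and Itgb1 passed the test in none of the 3 comparisons, and Itga9 read 635 to 827 over all arrays. Only 1 of the 6 probe sets of Itgb1, the beta subunit with the most alpha partners, could be tested, at 89.5 to 159. A further 7 genes were too dim to test: Itga2, Itga4, Itgam, Itgb3, Pecam1, Jam3 and Cxcr2, whose 10 probe sets stayed between -12.7 and 125. Such dim probe sets do not show that a gene is silent, and the 3 probe sets of Itga4, the alpha 4 subunit that binds Vcam1, reached 102 at most. Without the filter, Itga4 was lower in L-GMP than in GMP (log2 difference -0.47, adjusted p = 0.0378), and so was Cxcr2, a receptor for neutrophil-attracting chemokines (-0.42, adjusted p = 0.0120), with every array of both groups under the filter.

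**Figure D2:**
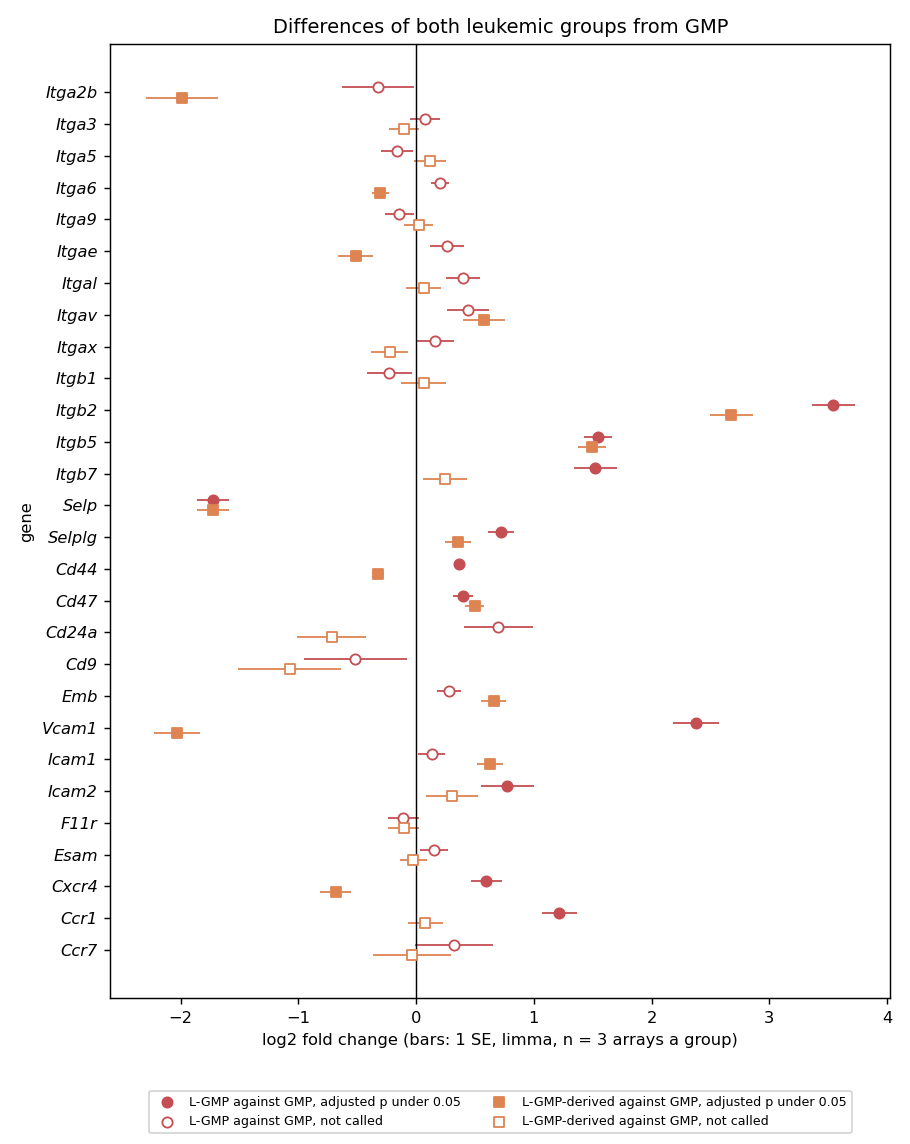
Log2 fold change of each tested gene (rows) in L-GMP against GMP (circles) and in L-GMP-derived cells against GMP (squares), with bars of 1 SE; filled symbols have an adjusted p under 0.05. Among alpha subunits only Itga2b in L-GMP-derived cells lies beyond 1 in either direction, Itgb2 and Itgb5 lie to the right in both groups, and Vcam1, Cd44 and Cxcr4 lie to the right in L-GMP and to the left in L-GMP-derived cells.

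Among selectins and other surface glycoproteins, P-selectin and its ligand went opposite ways in L-GMP. Selp encodes P-selectin, known from the granules of platelets and endothelial cells. Its brighter probe set read 235, 187 and 201 in GMP, 42.9, 22.6 and 29.3 in L-GMP, and 30.3, 29.1 and 35.7 in L-GMP-derived cells. All 6 leukemic arrays lay under the floor, so that both leukemic groups were at least 3.31-fold lower than GMP (log2 fold change -1.73 ± 0.14 SE, adjusted p = 1.38e-05 and 1.30e-05) and cannot be ordered between themselves. Its second probe set was lower in both as well (log2 difference -1.37, adjusted p = 1.02e-04 and 1.13e-04). Both probe sets passed the filter through the GMP arrays alone, so they had to be lower in the leukemic groups. The second therefore gives no independent support. With the floor at the 40th percentile the folds were 1.85 in both groups, and with the floor at the 10th percentile they were at least 6.29 and 6.54.

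Selplg encodes PSGL-1, the main ligand of P-selectin on leukocytes. It read 1019, 1033 and 1005 in GMP, 1456, 1772 and 1824 in L-GMP, and 1376, 1185 and 1348 in L-GMP-derived cells. The 3 groups did not overlap, in the order L-GMP, L-GMP-derived, GMP. In L-GMP Selplg was 1.65-fold higher than in GMP (log2 fold change 0.72 ± 0.11 SE, adjusted p = 9.40e-04). The 1.28-fold difference of L-GMP-derived cells from GMP (adjusted p = 0.0416) and their 1.29-fold difference from L-GMP (adjusted p = 0.0295) were less firm. Of 19 alternatives, 9 ended the first call and 7 the second (adjusted p up to 0.172 and 0.106). Single omissions that ended the first were any GMP array, L-GMP-derived replicate 1 or 3 and L-GMP replicate 2. For the second they were L-GMP replicate 2 or 3 and L-GMP-derived replicate 2 or 3. Quantile normalization and a term for the replicate number ended both. Leaving out the filter ended the first, and fitting only the 6 arrays of the groups compared ended the second.

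Cd44, the receptor for hyaluronan, was bright everywhere and varied little within groups. It read 3884, 4155 and 3867 in GMP, 4970.0, 5179 and 5209 in L-GMP, and 3170.0, 3103 and 3218 in L-GMP-derived cells. The 3 groups did not overlap. Cd44 was 1.29-fold higher in L-GMP than in GMP (log2 fold change 0.37 ± 0.05 SE, adjusted p = 4.62e-04), 1.25-fold lower in L-GMP-derived cells than in GMP (adjusted p = 0.00109) and 1.62-fold lower there than in L-GMP (adjusted p = 7.38e-06).

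The promoter of Cd44 is shown for the same motif and because this gene rose in L-GMP. The window is chr2:102901616-102901915 on the minus strand of GRCm38.p6 (RefSeq), with the motif in capitals.
Cd44: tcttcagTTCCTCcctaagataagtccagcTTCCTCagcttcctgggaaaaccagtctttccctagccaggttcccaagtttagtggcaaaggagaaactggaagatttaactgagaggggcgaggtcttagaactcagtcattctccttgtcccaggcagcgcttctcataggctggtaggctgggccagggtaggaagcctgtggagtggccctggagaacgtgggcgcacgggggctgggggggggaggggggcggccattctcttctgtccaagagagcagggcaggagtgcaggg
It lay on the complementary strand at 2 places, from positions -243 and -220 relative to the start.

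Cd47, the signal to phagocytes that binds Sirpa, was represented by 4 tested probe sets. The brightest read 2821, 3018 and 3037 in GMP, 3595, 3942 and 4186 in L-GMP, and 4677, 3857 and 4027 in L-GMP-derived cells. Every leukemic array lay above GMP, by 1.32-fold in L-GMP (adjusted p = 0.00526) and 1.41-fold in L-GMP-derived cells (adjusted p = 0.00172). The call in L-GMP ended when a term for the replicate number was added to the fit (adjusted p = 0.0887). In L-GMP 3 of the 4 probe sets were called higher, and in L-GMP-derived cells only the brightest was. The other 3 gave log2 differences of 0.58, 0.00 and -0.21 there (adjusted p = 0.0629, 0.989 and 0.334), and with the mean over the probe sets that call ended (adjusted p = 0.167). For L-GMP-derived cells against L-GMP the brightest was not called (0.10, adjusted p = 0.422). The other 3 gave -0.62, -0.40 and -0.40 (adjusted p = 0.0428, 0.00351 and 0.0652), of which 2 were called lower.

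Cd24a, the heat stable antigen of immature blood cells, read 3397, 2656 and 2843 in GMP and 5208, 5014 and 4188 in L-GMP. On the L-GMP-derived arrays it read 969, 2502 and 2376, replicate 1 being the lowest of all. L-GMP-derived cells were 2.67-fold below L-GMP (adjusted p = 0.00464, all 3 probe sets called), while the 1.62-fold difference of L-GMP from GMP did not pass the test (adjusted p = 0.112) although the groups did not overlap. That difference passed it without L-GMP-derived replicate 1, with array weights and with only the 6 arrays of the groups compared (adjusted p 5.19e-04 to 0.289 over the alternatives).

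Emb (embigin), an adhesion glycoprotein related to basigin, read 2256, 2055 and 2034 in GMP, 2359, 2828 and 2533 in L-GMP, and 2888, 3704 and 3464 in L-GMP-derived cells. The groups did not overlap, and it was one of the 2 members higher in L-GMP-derived cells than in L-GMP (1.30-fold, adjusted p = 0.0189). This call ended without L-GMP replicate 1 or 3 and without L-GMP-derived replicate 2 or 3. It also ended without the filter and with only the 6 arrays of the groups compared (adjusted p up to 0.0736). Against GMP the difference of L-GMP-derived cells was 1.58-fold (adjusted p = 0.00121). The tetraspanin gene Cd9 spread too widely for a call, at 203, 34.8 and -30.5 on the L-GMP-derived arrays (adjusted p = 0.102 against GMP). Without replicate 1 of that group it was called lower there than in both other groups.

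Vcam1 gave the widest span of all members. It encodes the ligand of alpha 4 beta 1 integrin, known from marrow stroma, endothelium and macrophages. Its brightest probe set read 666, 587 and 676 in GMP, 4026, 3175 and 2894 in L-GMP, and 196, 169 and 117 in L-GMP-derived cells. The 3 groups were far apart. Vcam1 was 5.19-fold higher in L-GMP than in GMP (log2 fold change 2.38 ± 0.19 SE, adjusted p = 1.48e-05), and L-GMP-derived cells were 4.09-fold below GMP (-2.03 ± 0.19 SE, adjusted p = 4.15e-05) and 21.2-fold below L-GMP (-4.41 ± 0.19 SE, adjusted p = 2.69e-07).

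The 3 probe sets of Vcam1 differed in size of response. A second one was higher in L-GMP (220.2, 185 and 144 against 96.4, 81.1 and 87.3 in GMP, log2 difference 1.03, adjusted p = 0.00172) and lower again in L-GMP-derived cells (adjusted p = 6.41e-04 against L-GMP, 0.544 against GMP). It passed the filter through the L-GMP arrays alone, so it had to be highest there and gives no independent support. The remaining one read 335 to 539.6 on all 9 arrays with no call (adjusted p = 0.619, 0.746 and 0.367). With the mean over the 3 probe sets the folds were 2.26, 1.69 and 3.83, still past the threshold. The transcripts that each of them reads were not looked up.

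Markers of cells known to carry Vcam1 moved with it in part. Of 5 tested monocyte and macrophage genes, 3 (Adgre1, Cd68 and C1qb) were higher in L-GMP than in GMP and none lower, and Mrc1, C1qa, C1qc and Fcgr1 lay below the filter on all 9 arrays. The summed signal of this list was 6369 to 7598 in GMP, 8679 to 10009.7 in L-GMP and 2019.6 to 2860.0 in L-GMP-derived cells. For the stromal list it was 1313 to 1598, 1812 to 2444 and 855 to 1063, where Pdgfrb alone was called, higher in L-GMP and lower in L-GMP-derived cells. Against GMP, L-GMP-derived cells had Adgre1 and Cd68 higher and the M-CSF receptor gene Csf1r 11.5-fold lower (535 ± 247 against 5767 ± 507), so that the sum fell while these other genes rose. Neutrophil genes summed to 8983 to 22602, 17928 to 36711 and 962 to 8499 in the same order of groups. Of the 6 tested, 0 were called in L-GMP against GMP. In L-GMP-derived cells 1 was lower than in GMP and 3 were lower than in L-GMP (10.7% and 14.1% of all tested genes). Genes of mast cells, eosinophils and basophils summed to 1207 to 1439, 3206 to 4957 and 296 to 419 in that order. In the last list Prg2, an eosinophil granule gene, rose from 221 ± 166 in GMP to 2669 ± 286 in L-GMP, while Mcpt8, a basophil protease gene, was called lower there (adjusted p = 0.00689). Mcpt8 passed the filter through the GMP arrays alone, so it had to be lower in L-GMP. The part of any of these in the levels of Vcam1 and Itgb2 was not tested.

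**Figure D3:**
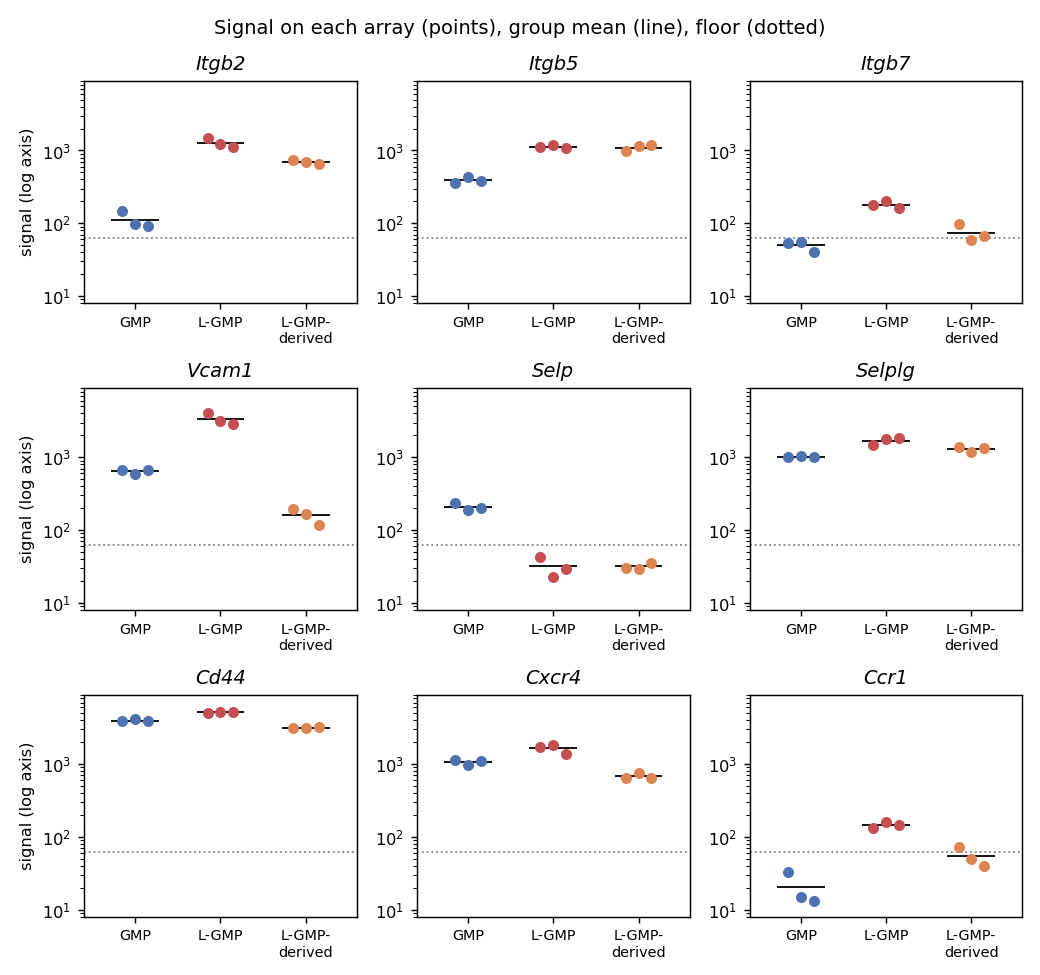
Signal on each array (points, log axis) and group mean (line) of 9 genes in GMP, L-GMP and L-GMP-derived cells, with 3 arrays each; the dotted line is the floor of 62.4. Itgb2 and Itgb5 are above GMP in both leukemic groups, Selp lies under the floor in both, Itgb7 and Ccr1 exceed it clearly in L-GMP, and Vcam1, Cd44 and Cxcr4 have L-GMP highest and L-GMP-derived cells lower than GMP.

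The other immunoglobulin superfamily members changed less. Icam1, a ligand of the beta 2 integrins, read 268, 249 and 297 in GMP, 303, 278 and 310.0 in L-GMP, and 437, 414 and 404 in L-GMP-derived cells. The last group lay above all other arrays, 1.54-fold above GMP (adjusted p = 0.00256) and 1.41-fold above L-GMP (adjusted p = 0.00736), while L-GMP and GMP overlapped (adjusted p = 0.437). Icam2, another such ligand, read 468, 415 and 416 in GMP and 779, 719.8 and 723 in L-GMP, a 1.71-fold rise (adjusted p = 0.0275). That call ended when any 1 of these 6 arrays was left out, without the filter and with a term for the replicate number (adjusted p up to 0.114 over the alternatives). Its L-GMP-derived values were 824, 461 and 402, with replicate 1 far above the others and no call (adjusted p = 0.358 against GMP). The junction genes F11r (511 to 655 on all arrays) and Esam (133 to 169.8) were called in no comparison. Of 8 endothelial genes, Cdh5, Tie1, Emcn and Plvap lay below the filter on all 9 arrays, and Kdr, Tek, Robo4 and Ramp2 above it on all 3 GMP arrays. Tek, which passed through the GMP arrays alone, was called lower in L-GMP (adjusted p = 0.0238) and in L-GMP-derived cells (adjusted p = 0.00590) than in GMP. The summed signal of the list was 719.5 to 821 in GMP, 669 to 752 in L-GMP and 606 to 668 in L-GMP-derived cells, and its part in these results was not tested.

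Of 3 tested chemokine receptors 2 were higher in L-GMP than in GMP, or 1 of 2 without Ccr1 (13.1% of all tested genes). Cxcr4, the receptor for Cxcl12, read 1150.3, 984 and 1118 in GMP, 1699, 1839 and 1394 in L-GMP, and 636, 755 and 637 in L-GMP-derived cells. The 3 groups did not overlap. Cxcr4 was 1.51-fold higher in L-GMP than in GMP (log2 fold change 0.59 ± 0.13 SE, adjusted p = 0.00752), and L-GMP-derived cells were 1.60-fold below GMP (adjusted p = 0.00398) and 2.42-fold below L-GMP (adjusted p = 6.48e-05). Both calls against GMP ended when a term for the replicate number was added to the fit (adjusted p = 0.0573 and 0.0638).

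Ccr1, a receptor for inflammatory CC chemokines such as Ccl3, was under the floor on all GMP arrays (33.0, 15.1 and 13.1) and read 132, 160.5 and 145 in L-GMP and 73.5, 49.6 and 39.5 in L-GMP-derived cells. The L-GMP values lay above those of both other groups, as they had to, since Ccr1 passed the filter through the L-GMP arrays alone. It was at least 2.33-fold higher in L-GMP than in GMP (log2 fold change 1.22 ± 0.15 SE, adjusted p = 2.02e-04) and at least 2.20-fold lower in L-GMP-derived cells than in L-GMP (adjusted p = 2.93e-04). Raising the floor to the 40th percentile made the first fold 1.30, and lowering it to the 10th made it at least 4.90. A second probe set, untested because 2 arrays alone exceeded the filter, read 114, 174 and 104 in L-GMP and 8.44, 12.8 and 22.8 in GMP. Ccr7, the receptor that guides cells to lymph nodes, read 44.7 to 140.0 over all arrays with no call.

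The promoter of Ccr1, which rose in L-GMP from under the floor, is shown for the same motif. The window is chr9:123968643-123968942 on the minus strand of GRCm38.p6 (RefSeq), with the motif in capitals.
Ccr1: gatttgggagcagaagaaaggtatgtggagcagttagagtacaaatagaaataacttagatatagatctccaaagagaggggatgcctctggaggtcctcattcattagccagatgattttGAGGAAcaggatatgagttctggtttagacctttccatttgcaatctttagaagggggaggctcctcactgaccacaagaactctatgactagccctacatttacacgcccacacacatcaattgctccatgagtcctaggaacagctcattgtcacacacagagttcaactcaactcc
The motif was found once, in the orientation of the gene, from position -129.
Of 27025 genes with promoters from RefSeq, 31.3% held GAGGAA on either strand in at least 1 such window.
Among members 23 had a promoter there and 11 of these held the motif, and of the 6 that rose in L-GMP and had a promoter, 3 did. A match is a description of the letters and shows no site. The windows of Itgb5, Cd47 and Cxcr4, which rose in L-GMP, and of Selp, which fell, held none.

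**Figure D4:**
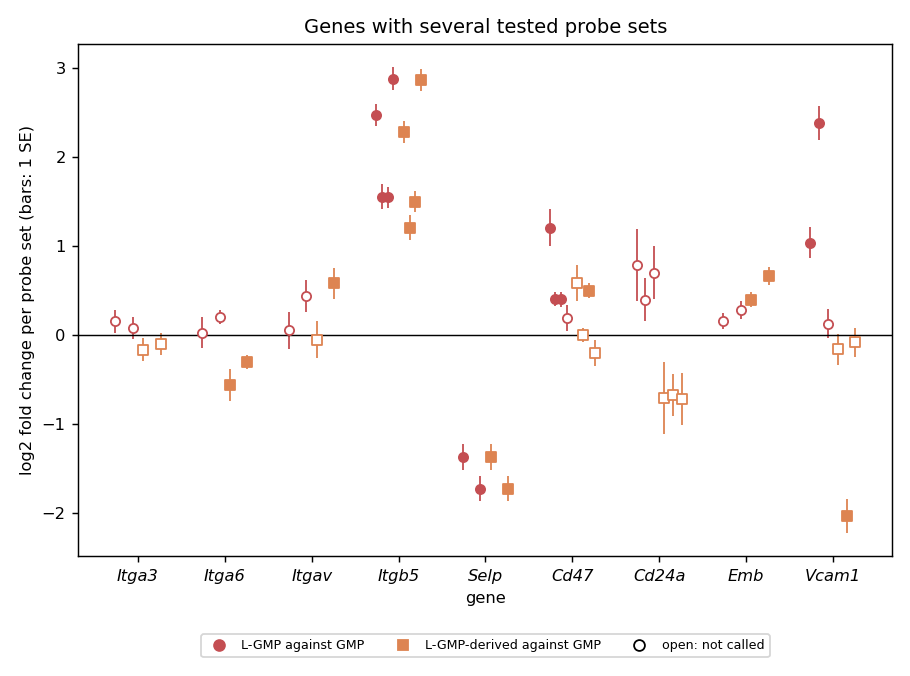
Log2 fold change (vertical axis, bars of 1 SE) of every tested probe set of the 9 members with more than 1, in L-GMP (circles) and L-GMP-derived cells (squares) against GMP; open symbols are not called. The probe sets of Itgb5, Selp and Emb lie on the same side of 0, while those of Vcam1 and Cd47 spread from no difference to their largest value.

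No member was called in opposite directions by different probe sets in any comparison. Of the 43 tested probe sets, 16 were higher and 2 lower in L-GMP than in GMP, 11 and 9 in L-GMP-derived cells against GMP, and 2 and 17 against L-GMP. Of these, 5 passed the filter through the arrays of 1 group alone (both of Selp, 1 each of Itgb7, Ccr1 and Vcam1), and the other 38 gave 13 and 0, 11 and 7, and 2 and 14. Over all 14578 tested probe sets 25.9%, 24.4% and 29.9% were called in either direction.

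The proteins that connect integrins to the cytoskeleton or signal from them formed a list of their own, with 22 of 27 genes tested. For this list and those that follow, the share of all tested genes was 13.1% higher and 12.8% lower in L-GMP against GMP, 13.4% and 10.7% in L-GMP-derived cells against GMP, and 16.6% and 14.1% against L-GMP. In L-GMP 14 of the 22 were higher than in GMP and 1 was lower, and the median log2 difference was 0.47. Zyx (zyxin, a focal adhesion protein) rose 2.68-fold, Vcl (vinculin, which ties talin to actin) 2.66-fold, Syk (a kinase downstream of integrins and immune receptors) 2.32-fold and Lcp2 (the adaptor SLP-76) 2.10-fold. Tln1 (talin), Fermt3 (kindlin-3), Ilk and Pxn (paxillin) rose 1.33- to 1.47-fold.

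In L-GMP-derived cells, 2 genes of this list were higher and 5 lower than in GMP, with a median log2 difference of 0.02. Against L-GMP, 1 was higher and 13 lower, with a median of -0.47. Zyx read 160.4 ± 16.5 there, 4.38-fold below L-GMP, and Lims1 (the adaptor PINCH1) was 2.48-fold below L-GMP and 1.98-fold below GMP. Rasgrp2, an activator of Rap1, was 1.93-fold lower than in GMP. Cytip, a partner of cytohesin, was the gene that rose against L-GMP, by 2.91-fold, with a wide spread (3138 ± 1076 against 1068 ± 351).

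**Figure D5:**
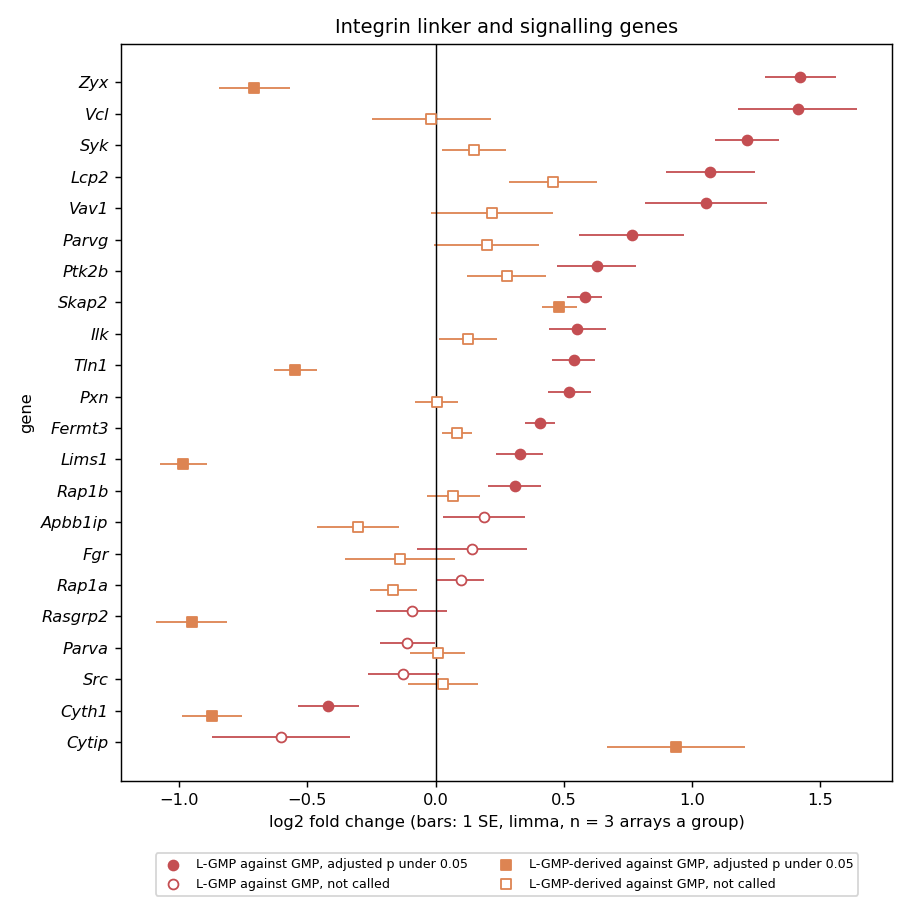
Log2 fold change (bars of 1 SE) of 22 integrin linker and signalling genes, ordered by their difference in L-GMP against GMP (circles), with L-GMP-derived cells against GMP (squares); filled symbols have an adjusted p under 0.05. Most circles are filled and lie to the right of 0, while the squares lie on either side of it.

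Of 15 other adhesion molecules, 6 were higher and 3 lower in L-GMP than in GMP, 5 and 3 in L-GMP-derived cells against GMP, and 1 and 6 against L-GMP. Ncam1, a neural cell adhesion molecule also found on some leukemic cells, was 7.46-fold higher in L-GMP than in GMP and 3.35-fold higher in L-GMP-derived cells. Lgals3 (galectin-3) was 5.31- and 4.40-fold higher, and Alcam 4.10-fold and at least 6.71-fold lower. Cd34, the sialomucin of progenitors, was at least 9.05-fold below GMP in L-GMP-derived cells. Ceacam1 rose 3.14-fold in L-GMP and was 2.94-fold lower in L-GMP-derived cells than there.

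Of 10 other receptors for chemoattractants, 2 were higher and 1 lower in L-GMP than in GMP, 0 and 3 in L-GMP-derived cells, and 1 and 2 in the latter against L-GMP. Ltb4r1, a leukotriene B4 receptor, was 3.69-fold above GMP in L-GMP and 3.64-fold below it in L-GMP-derived cells, a span of 13.4-fold between both. Ccr2, the receptor that releases monocytes from marrow, was 2.51-fold lower in L-GMP and 2.80-fold lower in L-GMP-derived cells than in GMP. S1pr4 was 1.55-fold above GMP in L-GMP.

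Tetraspanins, the family of Cd9, had 3 higher and 2 lower of 11 in L-GMP against GMP, and Tspan4 was 2.61-fold lower there. L-GMP-derived cells had 1 higher and 2 lower against GMP and the same numbers against L-GMP, with Tspan2 2.30-fold below GMP. Of 8 genes that build selectin ligands, B4galt1 rose and Tpst1 fell in L-GMP against GMP (1.31- and 1.66-fold), B4galt1 alone was called against GMP in L-GMP-derived cells, as 1.20-fold lower, and 2 were higher and 1 lower there against L-GMP. Of 12 ligands of adhesion and homing receptors 1 rose and 1 fell in L-GMP: Sirpa, the counter-receptor of Cd47, 2.21-fold higher, and Fn1 (fibronectin) 1.42-fold lower. In L-GMP-derived cells 1 ligand was higher and 2 were lower in each comparison. Thbs1 (thrombospondin-1) was 1.67-fold above GMP and 1.64-fold above L-GMP. Cdh1 (E-cadherin) was at least 2.14-fold below GMP and at least 2.51-fold below L-GMP. Cxcl2 was at least 10.2-fold below GMP (adjusted p = 0.0437), with overlapping groups, and Sirpa 1.97-fold below L-GMP. Itga7, the tested gene among the other integrin subunits, was called in no comparison.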

How the data were processed

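The authors deposited linear array intensities, 1 signal per probe set and array. The submitters' processing notes name MAS5 (version 5); further steps were not given in the sources used here. Negative signals, 0.939% of the deposited table, were kept until flooring. Values lower than 62.4 (25th percentile over the whole table) were raised to it, then log2 was taken, which understates changes of dim genes. A probe set was tested where 3 or more arrays exceeded 111, the 40th percentile. This left 14578, without 64 controls.

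Platform annotation supplied gene names; 20364 of 20393 probe sets with 1 symbol matched RefSeq genes (GRCm38.p6) by Entrez identifier. A gene was represented by its tested probe set of highest mean log2 signal. Groups were compared with limma 3.58.1 in R 4.3.3 (eBayes with an intensity trend, two-sided) in 1 fit to the 9 arrays, with 6 residual degrees of freedom. Benjamini-Hochberg adjustment covered every tested probe set of a comparison, and the threshold was 0.05. The procedure was tested on simulated data. The number of arrays limits the precision.

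Members and lists were chosen with earlier results of these data known. All 36 members were accounted for. From each other list at most 4 called genes of largest change per comparison could be named, and Tln1, Fermt3, Ilk and Pxn were added after their values were seen. Alternatives changed the floor, filter, normalization, trend, arrays fitted, weights, probe set choice and replicate block, or left out 1 array.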

Additional observations from a re-analysis of the deposited data

How the results depend on the processing

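The 6 counts of called members were recomputed under 19 alternatives. Those of L-GMP against GMP ran from 8 to 14 higher, and 1 was lower in every alternative but that without a filter on dim probe sets, which gave 3. Those of L-GMP-derived cells ran from 5 to 8 in either direction against GMP and from 10 to 16 lower against L-GMP. The 2 members higher against L-GMP became 1 without the filter, 1 with only the 6 arrays of the groups compared and 4 with array weights. Leaving out single arrays gave 9 to 14 higher and 1 to 1 lower in L-GMP against GMP, 5 to 7 and 5 to 7 in L-GMP-derived cells against GMP, and 1 to 3 and 10 to 14 against L-GMP. The highest values against L-GMP came without L-GMP-derived replicate 1, without which 9 results gained a call and 2 lost it. The value of 1 came without L-GMP replicate 1 or 3 and without L-GMP-derived replicate 2 or 3. Of 38 called results of single members, 27 kept their call and none changed direction in any alternative. Cd47 in L-GMP-derived cells against L-GMP, not called at a log2 difference of 0.10, was called lower with the mean over its probe sets (-0.33, adjusted p = 0.0394), where the other 3 probe sets gave lower values. The cause of the other lost calls was not tested. Whether the same replicate numbers mark paired arrays was not settled. Deviations of L-GMP and L-GMP-derived arrays with the same number correlated at -0.31, -0.13 and -0.27. For replicates 2 and 3 the values were 0.17 and -0.13 between L-GMP and GMP, and -0.28 and -0.02 between L-GMP-derived cells and GMP. Deviations from a mean of 3 arrays are tied to one another, so such values cannot exclude pairing. GMP replicate 1 has no number in its label and formed a block alone, which took it out of the blocked comparisons. With the replicate block 8 members were higher and 1 lower in L-GMP against GMP, 5 and 5 in L-GMP-derived cells against GMP, and 2 and 10 against L-GMP. Among the calls lost under the block were those of Cxcr4 against GMP in both groups (adjusted p = 0.0573 and 0.0638) and of Cd47 in L-GMP against GMP (adjusted p = 0.0887). Signal over background limits Itgb7, Selp and Ccr1, whose folds follow the floor.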
